A study of Mus musculus with 21 samples.

Results

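The Hedgehog pathway genes followed here are 9 named genes, Shh, Ptch1, Smo, Gli1, Gli2, Gli3, Sufu, Hhip and Cdon, taken by symbol from a table of 31883 genes. All 9 were found, each in a single row. They were compared between the subcommissural organ (SCO), a small gland of secretory ependyma at the dorsal entrance to the cerebral aqueduct, and the hippocampus, both dissected from C57BL/6 mice on postnatal day 0 (P0). Per the labels the SCO group had 4 libraries and the hippocampus group 5, all of the same strain and age, with no other treatment or allele stated. The series also holds 6 SCO and 6 hippocampus samples of postnatal day 60, which were not analysed here. The labels do not say whether libraries came from separate animals or from pooled tissue, and a p-value here therefore reflects only how far these libraries differ from each other, which may be technical.

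Hedgehog proteins are secreted ligands that bind Ptch1, a membrane receptor which in their absence keeps the transducer Smo silent. Once Smo is released it accumulates in the primary cilium, the inhibitor Sufu lets go of the Gli transcription factors, and Gli2 acts mainly as an activator while Gli3 is mostly processed into a repressor. Gli1, Ptch1 and Hhip are themselves transcribed in response, so their RNA is often read as a sign of pathway activity. In the newborn hippocampus Sonic hedgehog is known to maintain progenitors of the dentate gyrus, and in the embryonic diencephalon it comes from the floor plate and the zona limitans, at a distance from the roof plate in which the SCO forms.

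Promoter windows, from 250 bases before to 50 bases after the annotated start, are shown for the members with the smallest p-values, Ptch1 and Gli3, and for Gli2, whose window holds the core letters of the Gli motif. They come from RefSeq on GRCm38.p6, which lists windows for 7 of the 9 members. The Ptch1 window is chr13:63565686-63565985 on the minus strand, the Gli3 window chr13:15463473-15463772 on the plus strand and the Gli2 window chr1:119053570-119053869 on the minus strand. Each is printed 5′ to 3′ in lower case, with any match to a searched motif in capitals.
Ptch1: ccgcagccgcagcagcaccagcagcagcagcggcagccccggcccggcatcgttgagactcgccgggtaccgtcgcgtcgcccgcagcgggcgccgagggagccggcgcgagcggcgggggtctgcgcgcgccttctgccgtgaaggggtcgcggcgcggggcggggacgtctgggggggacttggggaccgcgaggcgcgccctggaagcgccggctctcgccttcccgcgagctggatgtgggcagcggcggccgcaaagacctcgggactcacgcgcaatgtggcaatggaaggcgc
Gli3: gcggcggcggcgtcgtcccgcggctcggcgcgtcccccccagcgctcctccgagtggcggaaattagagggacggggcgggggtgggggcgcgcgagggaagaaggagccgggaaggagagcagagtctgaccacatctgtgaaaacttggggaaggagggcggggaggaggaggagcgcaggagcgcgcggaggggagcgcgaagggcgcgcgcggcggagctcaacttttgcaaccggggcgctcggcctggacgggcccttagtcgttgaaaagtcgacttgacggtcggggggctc
Gli2: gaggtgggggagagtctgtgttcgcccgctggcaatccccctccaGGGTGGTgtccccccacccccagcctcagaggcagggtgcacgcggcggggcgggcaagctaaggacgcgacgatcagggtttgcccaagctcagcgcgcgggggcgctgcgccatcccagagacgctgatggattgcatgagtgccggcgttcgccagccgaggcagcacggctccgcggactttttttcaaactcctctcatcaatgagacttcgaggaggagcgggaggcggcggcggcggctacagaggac

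The consensus of the Gli zinc fingers, GACCACCCA on either strand, occurred in none of the 7 windows, and it occurred in 0.253% of all 32851 RefSeq windows of this length. Its inner letters, ACCACCC on either strand, were found in 4.61% of all windows and, among the members, once in Gli2. There the letters run as GGGTGGT from base 46 of the window, 205 bases before the start. The shorter motif lies inside the longer one, so the 2 searches overlap. Each member had a single window, and other starts of the gene were not searched. The Ptch1 window lies inside its gene, which reaches 63573598 at its 5′ end. The Gli3 window likewise lies inside a gene that begins at 15463235. So does the Cdon window, chr9:35451826-35452125, in a gene that begins at 35421128. The Ptch1 window was 76.3% G and C with 47 CG dinucleotides and the Gli3 window 71.0% with 39, against a median of 52.7% and 7 over all windows.

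Libraries held between 35379988 and 64242533 reads in SCO and between 36787949 and 151009954 in hippocampus. Values below are normalized counts, meaning reads per gene after each library was scaled by its own size factor. The tissue labels were checked against markers. Sspo, the gene of the Reissner fibre protein SCO-spondin, had 2504, 9720, 2999 and 2027 normalized counts in SCO replicates 1 to 4 and at most 3.302 in any hippocampus library. Tbr1, a transcription factor gene of projection neurons, had 0 in 3 SCO libraries and 12.31 in replicate 4, and between 541.8 and 2628 in hippocampus. Markers of other cells moved with the groups: 5 of 8 markers of habenula, thalamus and pretectum were called higher there, and their summed level was 671 to 1244 RPM (reads scaled to the library total) in SCO and 26.1 to 49.9 in hippocampus. Red blood cell markers were called higher in SCO for 4 of 5, at 804 to 1479 RPM in SCO and 78.1 to 445 in hippocampus. Interneuron markers were called lower in SCO for 3 of 4, although their sums overlapped at 53.9 to 739 RPM in SCO and 106 to 322 in hippocampus. Choroid plexus markers summed to 3216 RPM in SCO replicate 4, against 168 to 225 in the other SCO libraries and 6.29 to 244 in hippocampus. In bulk tissue, fewer cells of a type and less RNA per cell cannot be told apart.

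The receptor gene Ptch1 was the only member whose libraries did not overlap between the tissues. Its 4 SCO libraries held 1795, 1149, 893.0 and 2616 normalized counts, and its 5 hippocampus libraries 279.6, 421.0, 712.0, 205.9 and 60.89. Every SCO library stood above every hippocampus library, and the mean was 4.80 times as high in SCO, 1613 ± 769 (SD, n = 4) against 336 ± 247 (SD, n = 5). Among all 28150 genes tested, 4.78% had every SCO library above every hippocampus library, 3.75% had every SCO library below, and 8.53% had no overlap in either direction, against 1 of the 9 members.

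In limma-trend on log2(normalized count + 1), adjusted over all genes by Benjamini-Hochberg, Ptch1 had a log2 difference of 2.54 (SCO minus hippocampus, SE 0.69, 95% interval 1.01 to 4.06) and an adjusted p of 0.0829, which misses the threshold of 0.05. The authors' deposited table gives Ptch1 a log2 fold change of 2.27 (SE 0.65) and an adjusted p of 0.00640, which passes it. DESeq2 run on the recovered reads gave the same values, and edgeR gave 2.23 with an adjusted p of 0.137. Leaving out any single library kept the direction, with log2 differences from 2.03 to 2.91 and limma adjusted p from 0.0684 to 0.187. SCO replicate 4, in which the choroid plexus markers were highest, also held the most Ptch1. Without that library the log2 difference was 2.27, and the part of those markers in the rest was not tested.

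**Figure D1:**
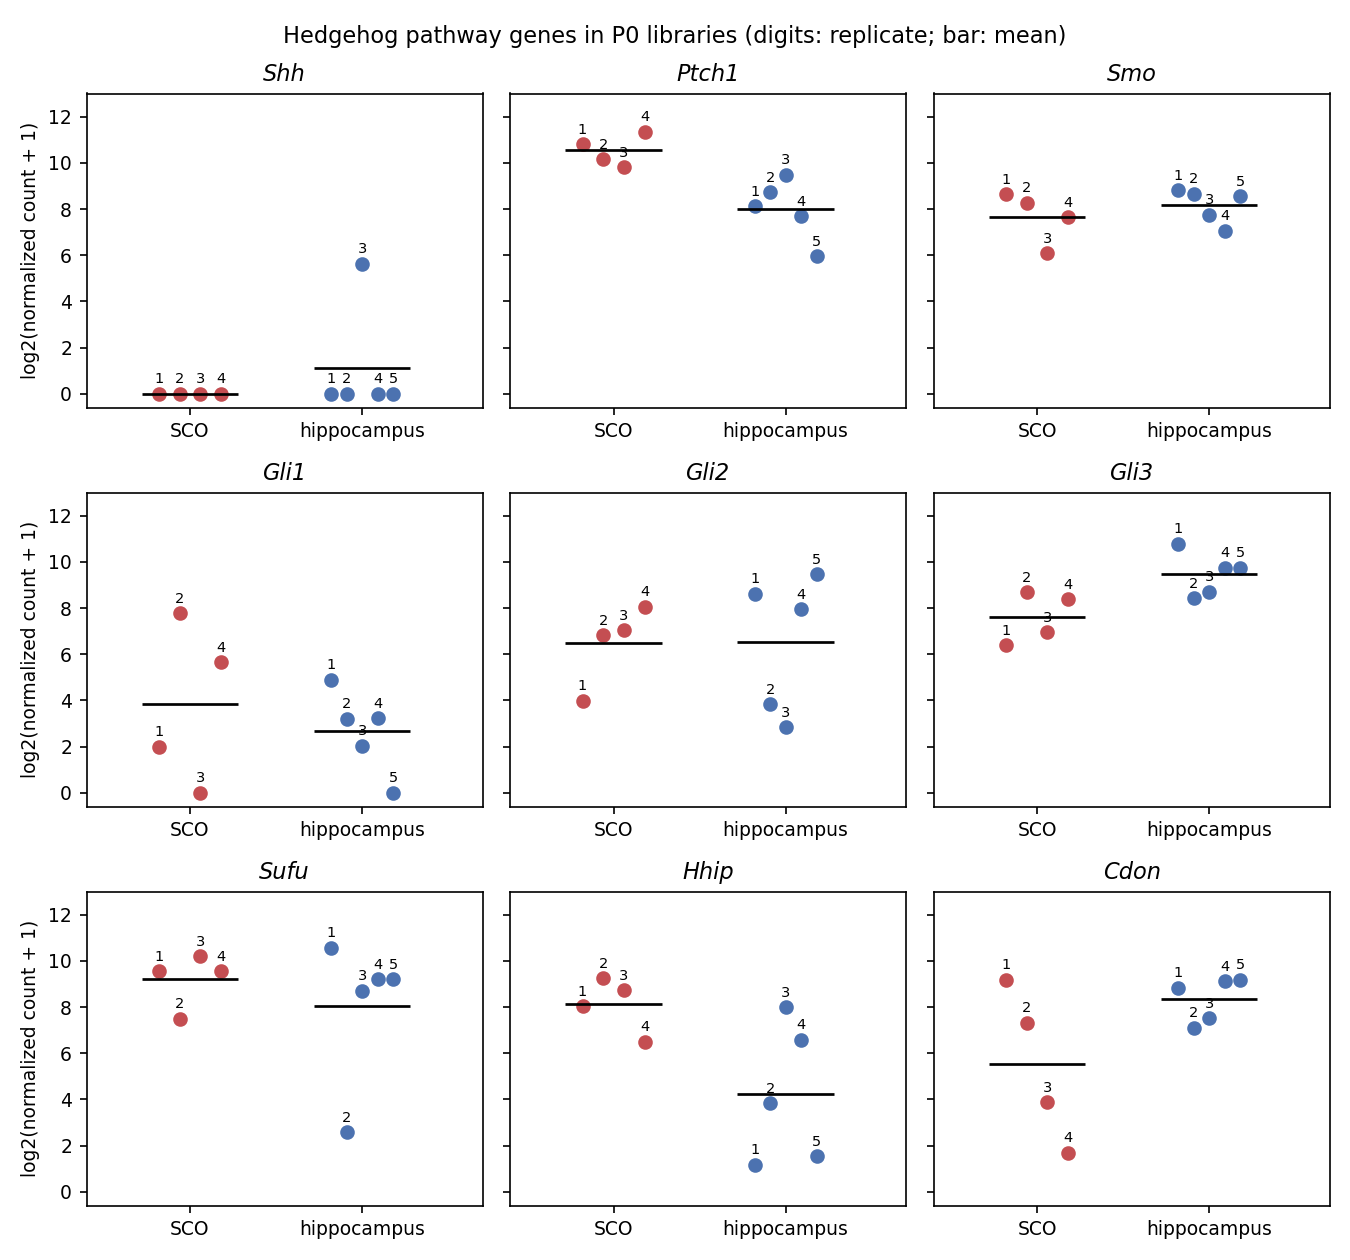
Normalized counts of the 9 members on a log2(value + 1) scale, with a panel for each gene, SCO libraries on the left in red and hippocampus libraries on the right in blue; digits are replicate numbers and bars are means of the log2 values. Ptch1 has no overlap between the tissues, while Gli1, Gli2, Sufu, Hhip and Cdon spread over several log2 units within a tissue.

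No member passed the limma test across all genes, in which 3.05% of genes were called, 1.71% higher and 1.34% lower in SCO. At an unadjusted p under 0.05 there were 3 members, Ptch1, Gli3 and Hhip, as against 15.5% of all genes. In edgeR 0 members passed after adjustment (1.79% of genes called, 1.07% higher and 0.721% lower in SCO) and 2 had an unadjusted p under 0.05. The authors' deposited table calls 2 members, Ptch1 and Gli3, beside 12.7% of the genes it gives an adjusted p (6.98% higher and 5.69% lower in SCO), and DESeq2 on the recovered reads has the same shares. The median log2 difference of the members was -0.07, and that of all genes tested -0.04.

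The ligand gene Shh was almost without reads. It had 0 reads in all 4 SCO libraries, which allows up to 3 reads or 2.74 to 4.48 normalized counts in each. In hippocampus it had 0 reads in 4 libraries and 47 reads, 48.50 normalized counts, in replicate 3. All of its reads therefore came from a single library, and the tissues could not be compared at this depth (limma log2 difference -1.13, SE 1.18, adjusted p = 0.658, a size that depends on the pseudocount). The authors' deposited table gives Shh no p-value. Shh shares 446 exon bases with the antisense gene 9530036O11Rik and 361 with Gm26894 on the other strand, and no source used here states whether strand was used in counting. Among the markers of floor plate and zona limitans, tissues that make Shh in the embryo, Foxa2 had 0 reads in hippocampus and in 3 SCO libraries, and 191.4 normalized counts in SCO replicate 4. The summed level of that list was 23.1 to 184 RPM in SCO and 11.7 to 45.1 in hippocampus, with 0 of 4 markers called higher and 1 called lower in SCO by limma. Most of the sum in SCO came from Spon1, which had 1214, 6720, 10464 and 4941 normalized counts in SCO and 695.3, 315.3, 1502, 2136 and 2081 in hippocampus (limma adjusted p = 0.182), so it does not show the list as a whole higher in SCO.

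Hhip, a membrane protein that binds Hedgehog ligands and withholds them from Ptch1, was also higher on average in SCO. Its SCO libraries held 261.1, 608.4, 420.9 and 89.55 normalized counts, and its hippocampus libraries 1.248, 13.21, 251.8, 94.70 and 1.903. Hippocampus replicates 3 and 4 lay within the SCO range, and replicates 1, 2 and 5 lay below every SCO library. Means were 345 ± 222 in SCO (SD, n = 4) and 72.6 ± 108 in hippocampus (SD, n = 5), a ratio of 4.75. The log2 difference of 3.91 (SE 1.49, 95% interval 0.61 to 7.21, limma adjusted p = 0.227) did not pass. In edgeR it was 2.20 (adjusted p = 0.410).

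Cdon, a co-receptor that presents the ligand to Ptch1, had 581.9, 158.0, 13.70 and 2.239 normalized counts in SCO replicates 1 to 4 and 455.6, 137.0, 181.6, 553.6 and 576.5 in hippocampus replicates 1 to 5. The SCO libraries spanned a 260-fold range, from the highest value in either tissue to the lowest. Hippocampus libraries kept within a 4.21-fold range. The log2 difference was -2.83 (SE 1.39, 95% interval -5.90 to 0.24, limma adjusted p = 0.363), against a ratio of means of 0.496 and log2 differences of -1.06 in edgeR (adjusted p = 0.712) and -1.01 in DESeq2 (adjusted p = 0.695). Without SCO replicate 4 it was -1.56 (adjusted p = 0.555), and without SCO replicate 1 it was -4.05 (adjusted p = 0.151).

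The transducer gene Smo had 398.4, 307.1, 66.66 and 199.2 normalized counts in SCO and 446.9, 404.4, 214.6, 132.4 and 376.0 in hippocampus. The ranges overlapped, with SCO replicate 3 below every hippocampus library and hippocampus replicates 1 and 2 above every SCO library. Its log2 difference was -0.51 (SE 0.68, 95% interval -2.01 to 0.99, limma adjusted p = 0.720), and 0.02 (adjusted p = 0.993) without SCO replicate 3. The interval is wide on both sides of 0, so equal levels were not shown.

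Sufu, the cytoplasmic inhibitor of the Gli proteins, had 750.5, 178.7, 1175 and 752.2 normalized counts in SCO and 1515, 4.952, 415.8, 592.0 and 589.1 in hippocampus. Hippocampus replicate 2 held 3 reads of Sufu, while the other 4 hippocampus libraries lay within or above the SCO range. The log2 difference was 1.15 (SE 1.42, 95% interval -2.0 to 4.30, limma adjusted p = 0.700). Without hippocampus replicate 2 it was -0.22 (adjusted p = 0.886), so the direction rested on that library.

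**Figure D2:**
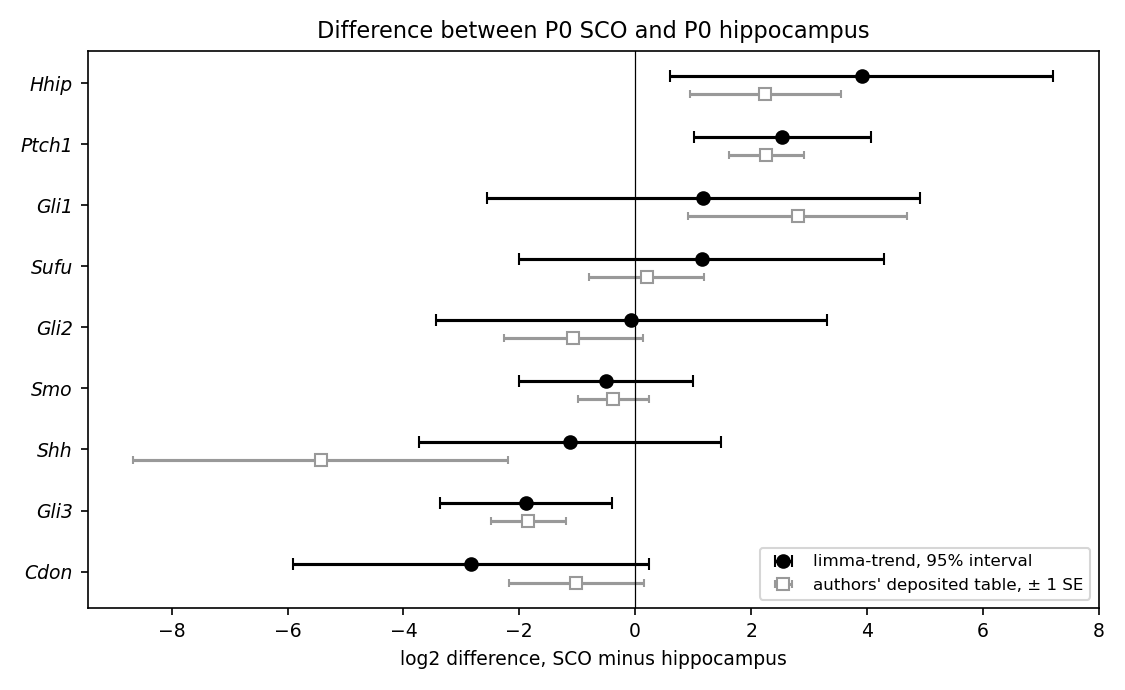
Log2 difference (SCO minus hippocampus, horizontal axis) of the 9 members, from limma-trend with 95% intervals (black circles) and from the authors' deposited table with ± 1 SE (grey squares). The limma interval lies above 0 for Ptch1 and Hhip, below 0 for Gli3 and across 0 for the other 6 members.

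Gli3, the main repressor among the Gli factors, had a lower mean in SCO. It had 83.55, 407.5, 122.4 and 330.2 normalized counts there, against 1756, 343.4, 417.9, 855.6 and 858.9 in hippocampus. The tissues overlapped only in that SCO replicate 2 stood above hippocampus replicate 2. Means were 236 ± 158 in SCO (SD, n = 4) and 846 ± 562 in hippocampus (SD, n = 5), 3.59 times as high in hippocampus. The log2 difference was -1.88 (SE 0.67, 95% interval -3.37 to -0.40, limma adjusted p = 0.189), and in edgeR it was -1.88 (adjusted p = 0.235). The authors' deposited table gives Gli3 -1.84 (SE 0.65, adjusted p = 0.0396). With each library left out in turn the limma value stayed between -2.24 and -1.48 (adjusted p from 0.137 to 0.349).

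Gli2, the main activator, had 14.92, 112.2, 129.7 and 266.4 normalized counts in SCO and 394.5, 13.21, 6.191, 247.5 and 709.4 in hippocampus. Within hippocampus it differed 115-fold between replicates 3 and 5, and the SCO range lay inside the hippocampus range. The log2 difference was -0.07 (SE 1.52, 95% interval -3.44 to 3.30, limma adjusted p = 0.987). It turned positive without SCO replicate 1 (0.76) or without hippocampus replicate 1 (0.45), 4 (0.28) or 5 (0.66), and it is no evidence of equal levels.

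Gli1, an activator whose own transcription depends on the pathway, had 2.984, 217.1, 0 and 49.25 normalized counts in SCO and 28.71, 8.254, 3.095, 8.410 and 0 in hippocampus. SCO replicates 2 and 4 stood above every hippocampus library, and SCO replicates 1 and 3 held 2 reads and 0 reads. Gli1 had a mean of 67.3 ± 102 in SCO (SD, n = 4) and 9.69 ± 11.2 in hippocampus (SD, n = 5), and a log2 difference of 1.18 (SE 1.69, 95% interval -2.56 to 4.92, limma adjusted p = 0.743). In edgeR it was 2.74 (adjusted p = 0.487) and in DESeq2 2.80 (adjusted p = 0.403). Without SCO replicate 2 the difference was -0.13 (adjusted p = 0.977). On the other strand the antisense gene Gm47200 overlaps 9584 bases of the Gli1 span, 265 of them in exons of both genes. Gm47200 had 0, 103.4, 1.826 and 156.7 normalized counts in SCO replicates 1 to 4 and 3.745, 19.81, 10.32, 10.97 and 0.3806 in hippocampus replicates 1 to 5. With no stated strand setting, reads of the 2 genes cannot be told apart where they overlap.

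Spread between libraries of a tissue was wide for most members. The SD of log2(normalized count + 1) within tissues, pooled, was 1.10 for Ptch1, 0.93 for Smo and 1.01 for Gli3, below the median of 1.20 over all genes tested. For Shh it was 1.90, and for Gli1, Gli2, Sufu, Hhip and Cdon it ranged from 2.32 to 2.67. Of the 3 members whose RNA is known to follow pathway activity, Ptch1 separated the tissues but passed only in DESeq2. Hhip and Gli1 had higher means in SCO with overlapping libraries, and neither passed under limma, edgeR or DESeq2.

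On the RPKM scale (RPM per kilobase of exon), which allows members to be set beside each other, Ptch1 ranked first in SCO with 2.06 ± 0.97 (SD, n = 4). It was followed by Sufu with 1.65 ± 0.90, Smo with 0.798 ± 0.494 and Hhip with 0.691 ± 0.452. Cdon, Gli3, Gli2 and Gli1 ranked below them, at 0.462 to 0.249, and Shh was at 0. The order in hippocampus began with Gli3 at 1.60 ± 1.10 (SD, n = 5), Sufu at 1.49 ± 1.33 and Smo at 1.00 ± 0.43, with Ptch1 sixth at 0.421 ± 0.312. In both tissues each of the 8 steps between neighbours in this order was no larger than the larger of their SDs. With the longest transcript as the length in place of all exons, Sufu came first in both tissues, level with Ptch1 in SCO at 2.81.

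**Figure D3:**
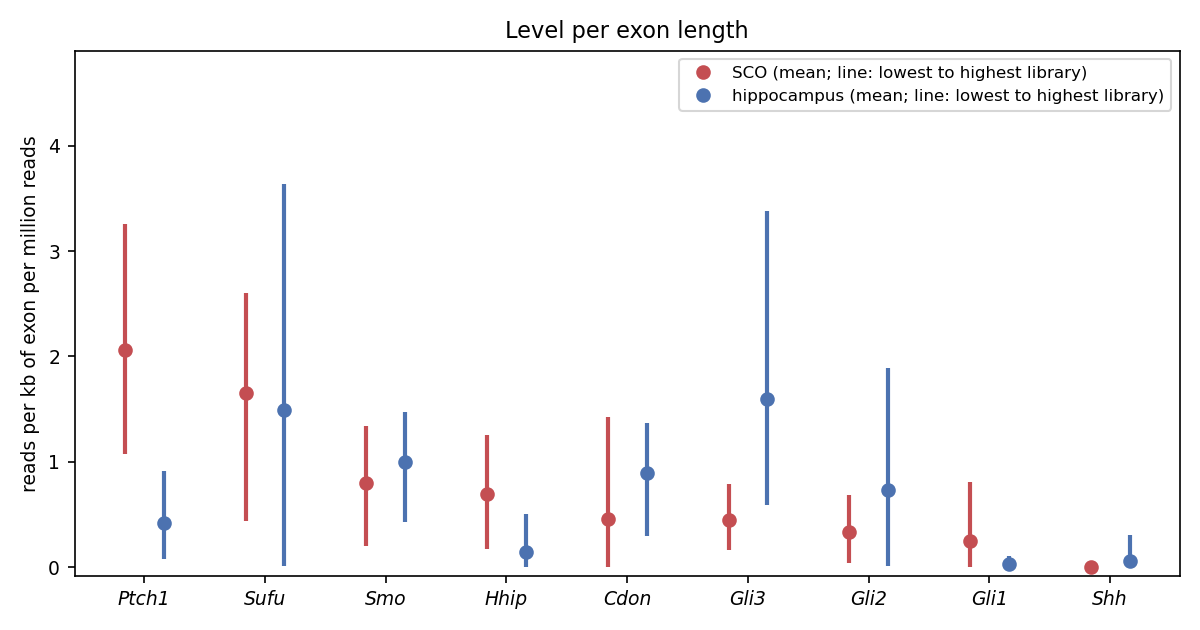
Level of each member in RPKM (RPM per kilobase of exon); points are means and lines run from the lowest to the highest library, SCO in red left of hippocampus in blue. Ptch1 is first among the members in SCO and sixth in hippocampus, where Gli3 is first.

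Of 54 other pathway genes listed by role, 49 were tested and 3 were called by limma, Boc higher in SCO and Ccnd2 and Sfrp1 lower, beside 3.05% of all genes. At an unadjusted p under 0.05 there were 13 of 49, beside 15.5% of all genes, and DESeq2 called 6, beside 12.7% of all genes with an adjusted p. The counts by role are to be read against these same shares of all genes. Boc, like Cdon a co-receptor for the ligand, had 1307, 3940, 1612 and 835.0 normalized counts in SCO and 601.7, 194.8, 220.8, 306.4 and 318.9 in hippocampus. All SCO libraries stood above all hippocampus libraries, and the log2 difference was 2.42 (SE 0.53, limma adjusted p = 0.0377). Boc also passed in edgeR (2.51, adjusted p = 0.0498) and DESeq2 (2.55, adjusted p = 6.06e-05). The limma call was kept without SCO replicate 4 (adjusted p = 0.0335) or hippocampus replicate 1 (0.0411). It was lost without SCO replicate 1 (0.0711), 2 (0.0963) or 3 (0.0921), or hippocampus replicate 2 (0.0565), 3 (0.0903), 4 (0.0766) or 5 (0.0634).

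Among the 7 genes of reception at the membrane, Boc was the only gene called by limma, and the median log2 difference was 1.04 (range 0.20 to 2.42). Gas1, a co-receptor beside Cdon and Boc, had 382.0, 60.54, 90.40 and 100.7 normalized counts in SCO and 17.48, 350.0, 156.8, 51.56 and 249.3 in hippocampus (log2 difference 0.20, SE 1.01, limma adjusted p = 0.939). Its ranges overlapped, unlike those of Boc. SCO replicate 1 stood above every hippocampus library, and hippocampus replicates 1 and 4 stood below every SCO library.

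Of 7 tested genes of ligand making and release 0 were called by limma, 2 had an unadjusted p under 0.05, and edgeR called 0. DESeq2 called 1 of this role, Scube2 (named after its values were seen), which encodes a secreted protein that helps lipid-bearing ligand leave the cell. Scube2 held 483.4, 187.5, 1493 and 22.39 normalized counts in SCO and 2.497, 6.603, 26.83, 0.3657 and 1.522 in hippocampus. SCO replicate 4 stood below hippocampus replicate 3, and the other SCO libraries stood above all of hippocampus. The log2 difference was 5.63 (SE 1.41, limma adjusted p = 0.0621). Disp1, which releases ligand from producing cells, had a log2 difference of -1.19 (SE 1.04, limma adjusted p = 0.613).

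Among 11 genes acting at or below Smo in the cilium limma called 0, 4 had an unadjusted p under 0.05, edgeR called 0 and DESeq2 2, Arl13b and Evc. The value of Evc was 0.435 to 0.451 of that of Crmp1, a neighbour on the opposite strand, in 8 libraries. In hippocampus replicate 2 it was 0.630. Whether the Evc count holds reads of Crmp1 was not tested. Gpr161, a ciliary receptor that restrains the pathway, had 0, 437.1, 98.61 and 10.07 normalized counts in SCO and 737.8, 1509, 1778, 424.5 and 2147 in hippocampus. SCO replicate 2 just reached the range of the hippocampus libraries and the other 3 lay below it (log2 difference -5.42, SE 1.51, limma adjusted p = 0.0893, and 0.0331 without SCO replicate 2). Arl13b, a ciliary GTPase, had 411.8, 379.5, 586.2 and 406.3 in SCO and 1643, 1524, 851.2, 953.3 and 946.4 in hippocampus, with no overlap (log2 difference -1.37, SE 0.37, limma adjusted p = 0.0796). Markers of motile cilia summed to 229 to 317 RPM in SCO and 48.8 to 62.5 in hippocampus, with 2 of 5 called higher in SCO, and their part in these values was not tested.

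Of the 14 genes of Gli processing limma called 0, 3 had an unadjusted p under 0.05, edgeR called 0 and DESeq2 called 1, the kinase gene Dyrk2 (log2 difference -2.74, SE 0.68, limma adjusted p = 0.0593). Kif7, a ciliary kinesin that organises Gli at the cilium tip, ranged from 0 to 1003 in SCO and from 7.490 to 352.1 in hippocampus (log2 difference -0.60, SE 1.83, limma adjusted p = 0.892).

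**Figure D4:**
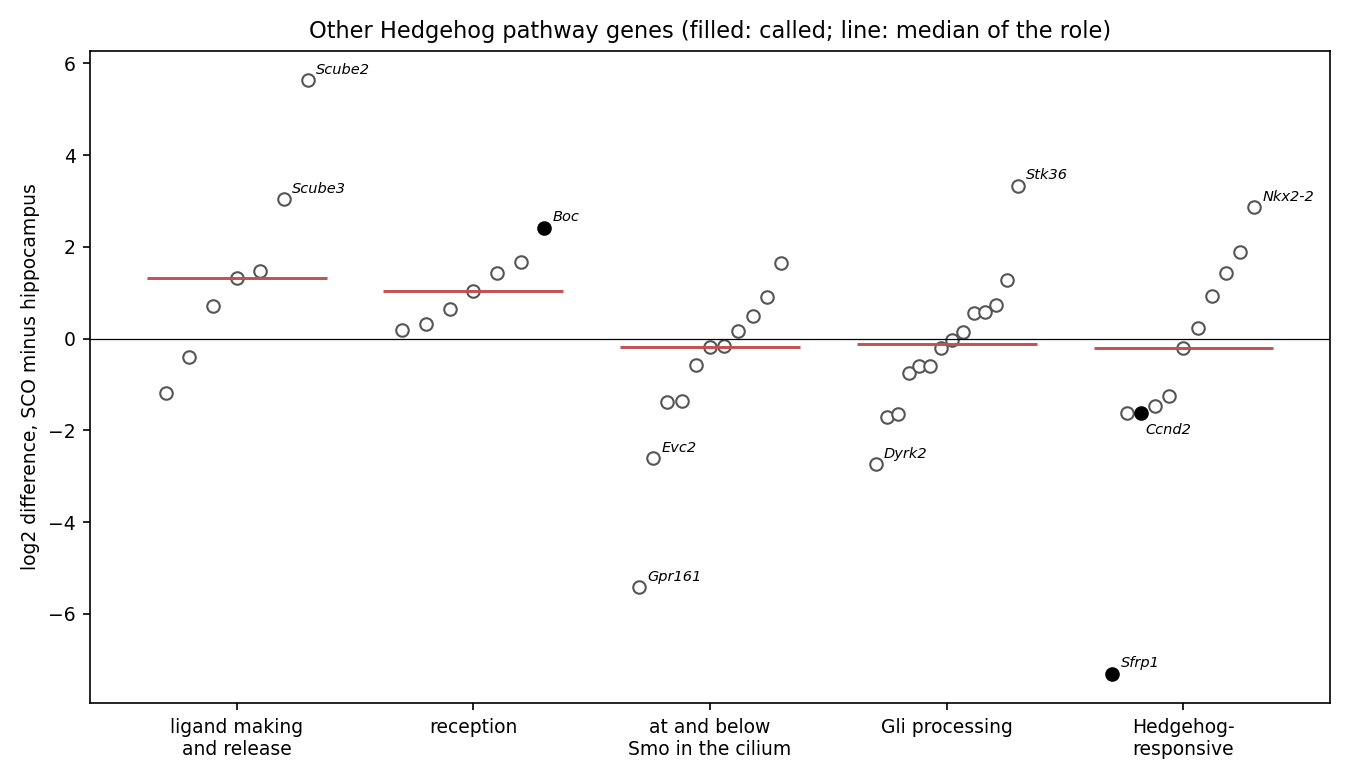
Log2 difference (SCO minus hippocampus, vertical axis) of the other pathway genes tested, by role; filled points passed limma at an adjusted p of 0.05, open points did not, and red lines are medians. Boc at 2.42 is filled above 0, and Ccnd2 at -1.62 and Sfrp1 at -7.30 are filled below it.

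Of 11 tested genes known to respond to Hedgehog in neural or mesenchymal tissue, 2 fell and 0 rose in SCO by limma, beside 1.34% and 1.71% of all genes, with a median log2 difference of -0.20. In edgeR, in DESeq2, with no filter and with scaling by total count 1 was called. Ccnd2, a D-type cyclin of dividing progenitors, had 13586, 6602, 5385 and 5040 normalized counts in SCO and 19368, 25918, 20122, 19887 and 23060 in hippocampus. Ccnd2 showed no overlap between the tissues and a log2 difference of -1.62 (SE 0.28, limma adjusted p = 0.0135). Its call was kept in edgeR, DESeq2 and with any single library left out (limma adjusted p from 0.00236 to 0.0416). Markers of dividing cells summed to 66.8 to 102 RPM in SCO and 91.1 to 138 in hippocampus, and their part in this was not tested. The antisense genes 9330179D12Rik and Gm43126 share exon bases with Ccnd2 on the other strand. Mean normalized counts of 9330179D12Rik were 3020 in SCO and 6889 in hippocampus, and those of Gm43126 were 273.9 and 1038. As no strand setting is stated, their reads cannot be told apart from those of Ccnd2 where they overlap.

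Sfrp1, a secreted Wnt antagonist, had 0 reads in SCO replicates 1 to 3 and 306.7 normalized counts in replicate 4, against 533.0, 546.4, 554.1, 1796 and 433.5 in hippocampus. The tissues did not overlap, with a log2 difference of -7.30 (SE 1.66, limma adjusted p = 0.0427). Sfrp1 lost its call in edgeR (-3.35, adjusted p = 0.346) and DESeq2 (-3.33, adjusted p = 0.252), with no filter (adjusted p = 0.0632) and with scaling by total count (-3.02, adjusted p = 0.055). With 3 SCO libraries at 0 the size depends on the pseudocount, at -8.05 with 0.5 and -4.82 with 10. Of the single libraries left out, SCO replicate 4 kept the call (adjusted p = 0.00109). It was lost without SCO replicate 1 (0.101), 2 (0.110) or 3 (0.109), or hippocampus replicate 1 (0.0913), 2 (0.0724), 3 (0.0934), 4 (0.102) or 5 (0.0739).

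**Figure D5:**
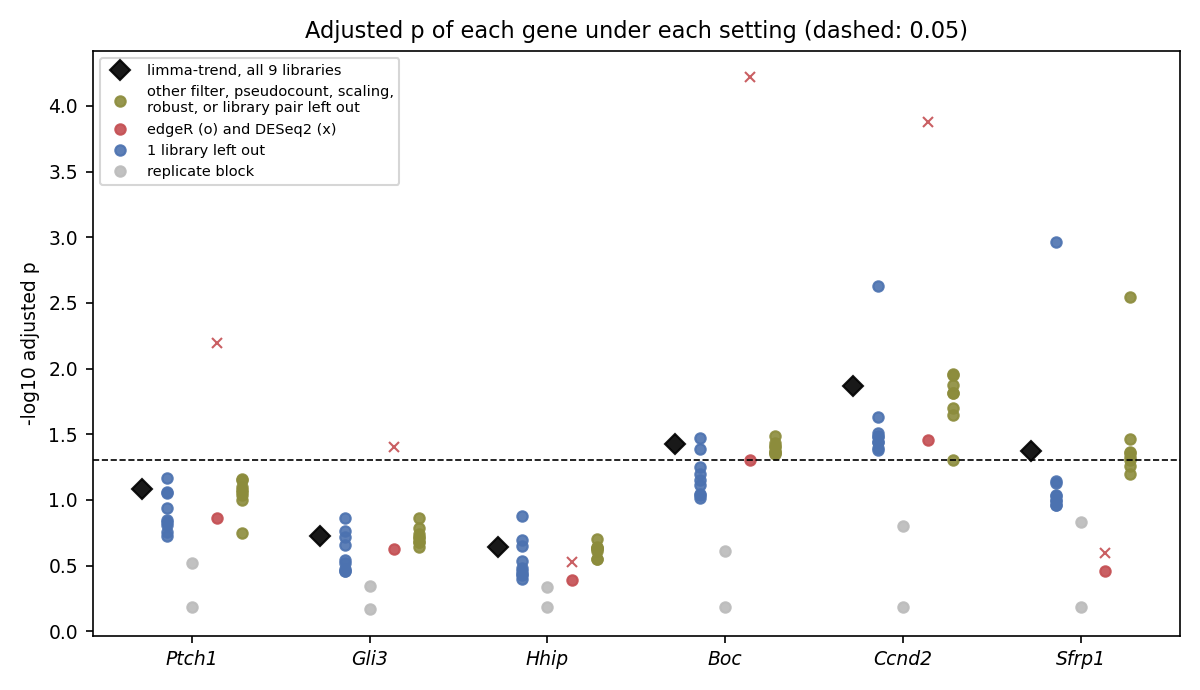
Adjusted p on a −log10 scale for Ptch1, Gli3, Hhip, Boc, Ccnd2 and Sfrp1 under each setting; the dashed line marks 0.05, and points above it passed. Ptch1 and Gli3 pass only in DESeq2, at 0.00640 and 0.0396, while Ccnd2 passes in every setting but the replicate blocks. Those blocks rest on few pairs of same-numbered libraries and could call few genes.

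Genes with the pattern most like that of Ptch1 were searched among 15010 genes by the root mean square difference of log2 values, each centred on its own mean, over the 9 libraries, which share the tissue contrast. The nearest 5 were Limd1 (0.51), Dnaaf1 (0.68), Mthfs (0.69), Pla2g6 (0.70) and Rxrg (0.71). Limd1, the closest, had a mean of 1200 ± 478 in SCO (SD, n = 4) and 251 ± 113 in hippocampus (SD, n = 5). Among the genes nearest to Gli1 were Zfp963 (1.18), Cdyl (1.32), Elf1 (1.33) and Ell3 (1.35), all farther from it than the 5 genes named were from Ptch1.

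Coordinates are those of GRCm38. Ptch1 (ENSMUSG00000021466.12) occupies chr13:63508328-63573598 (minus strand), and Gli3 (ENSMUSG00000021318.15) occupies chr13:15463235-15730026 (plus strand). Shh (ENSMUSG00000002633.4) is at chr5:28456815-28467256 (minus), Gli1 (ENSMUSG00000025407.7) at chr10:127329882-127341974 (minus) and Gli2 (ENSMUSG00000048402.14) at chr1:118834132-119053619 (minus). Smo (ENSMUSG00000001761.7) is at chr6:29735503-29761365 (plus) and Sufu (ENSMUSG00000025231.17) at chr19:46396896-46488804 (plus). Hhip (ENSMUSG00000064325.4) is at chr8:79965851-80058006 (minus) and Cdon (ENSMUSG00000038119.15) at chr9:35421128-35507652 (plus). Reads were summed per gene, so exons and isoforms are not resolved.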

How the data were processed

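RNA-seq of P0 SCO (4 libraries) and P0 hippocampus (5 libraries) from mice was used; the other 12 of the 21 samples were not analysed here. The submitters' processing notes name FastQC, HISAT, HISAT2, featureCounts, DESeq2 and the build GRCm38, with no versions, and no source used here states the strand setting. The values deposited by the authors are a signal, gene counts that were scaled with size factors. The deposited table also holds the authors' log2 fold change and its SE, a test score and p-values.

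All values were whole multiples of 1 read within a tolerance of 1e-06 (100.0% in each library), so whole reads were recovered. Depth ran from 35379988 to 64242533 reads in SCO and 36787949 to 151009954 in hippocampus. A count of 0 allows up to 3 reads, which covers counting error only. The test was limma-trend (limma 3.58.1, R 4.3.3) on log2(value + 1) with tissue as the only term, over the 28150 genes whose mean reached 1 in SCO or in hippocampus, with Benjamini-Hochberg adjustment at 0.05. A log2 difference on this scale is between means of logs: the pseudocount shrinks it for low genes, and libraries near 0 can carry it past the ratio of the means. On recovered reads edgeR 4.0.16 (quasi-likelihood) called 503 genes and DESeq2 1.42.0 called 2721, as many as the authors' deposited table. The procedure was tested on simulated data. Levels per length used GENCODE M21 on GRCm38, in which all 9 members matched.

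The members and lists were chosen with earlier results of these data known. Named genes are the 9 members, other pathway genes that limma called, Boc, Gas1, Kif7, Gpr161 and Disp1, the 5 genes most like Ptch1 and Gli1 in pattern, and the markers Sspo and Tbr1. Scube2, Arl13b, Evc and Dyrk2, which DESeq2 called, and the overlapping genes were named after their values were seen. A few genes that these rules name are not reported here. Alternatives were other pseudocounts, filters, scalings and tools, each library left out, and replicate blocks.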

Additional observations from a re-analysis of the deposited data

Results flagged for a closer look

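In 16 genes, the 9 members and 7 other pathway genes, each tissue was checked on normalized counts for a library far from the rest. Of the 31 groups with any spread, 6 had such a library. The limits used flag about 1 in 20 groups only where values are normally distributed. Counts with zeros are not, and a group with reads in a single library is always flagged, so the 6 cannot be set against that rate. Shh had 48.5 normalized counts in hippocampus replicate 3 and 0 in the other 4 hippocampus libraries. Sfrp1 had 306.7 in SCO replicate 4 and 0 in the other 3 SCO libraries, and 1796 in hippocampus replicate 4, where the next highest was 554.1. Gas1 had 382.0 in SCO replicate 1, with the next at 100.7, and Kif7 had 1003 in SCO replicate 2, with the next at 79.47. Disp1 had 1508 in hippocampus replicate 5, with the next at 428.2. No other member besides Shh had a library this far apart on normalized counts in either tissue. A low library is hardly set apart on that scale. An example is hippocampus replicate 2 for Sufu, at 4.952 with the next lowest at 415.8.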

How the results depend on the processing

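All genes called numbered 859 in limma, 503 in edgeR, 2721 in DESeq2 and 498 to 1077 with 1 library left out. Other pathway genes called numbered 3 in limma, 6 in DESeq2, 6 without SCO replicate 4 and hippocampus replicate 2 together, and 1 to 5 with 1 library left out. In DESeq2 Ptch1 (2.27, adjusted p = 0.00640) and Gli3 (-1.84, adjusted p = 0.0396) passed. Directions of members that did not pass turned with 1 library left out: Gli2 ranged from -0.99 to 0.76, Gli1 from -0.13 to 2.46, Smo from -0.84 to 0.017 and Sufu from -0.22 to 1.78, and Sufu was -0.34 without the pair. Gas1 was -0.088 in edgeR, -0.059 in DESeq2 and -0.43 to 0.63 with 1 library left out. Kif7 was 0.017 with a pseudocount of 10, 1.14 in edgeR, 0.24 scaled by total count, 1.21 in DESeq2 and -2.08 to 1.25 with 1 library left out. Apart from the left-out fits these causes were not tested. Shh had no test with a mean of at least 10 or without hippocampus replicate 3.

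Correlations of same-numbered libraries ran from -0.029 to 0.019 over 4 pairs by title number and from -0.025 to 0.057 over 2 pairs by column number. By title number 0 of 4 SCO libraries correlated best with their own number. By column number SCO replicate 3 did, with hippocampus replicate 4 at 0.057, and SCO replicate 2 did not. All these correlations lay below 0.1, the threshold used for pairing, so the numbers were not taken to pair samples. With a replicate block 1 gene was called by title number and 0 by column number, and 0 other pathway genes in either. In these fits the tissue difference rests only on the 4 pairs by title number or the 2 by column number. Few calls could be made with so few pairs, so a call lost there says little about a gene. Under the block Gli2 was 0.66 by title and 1.03 by column number, and by column number Gas1 was -0.86, Kif7 0.29 and Disp1 1.72. Shh has no value by column number.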

Other observations

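Evc, a ciliary protein gene of the pathway that DESeq2 called lower, had 15711, 13783, 21880 and 24369 normalized counts in SCO and 52900, 18418, 60506, 70230 and 59284 in hippocampus (log2 difference -1.37, SE 0.37, limma adjusted p = 0.0826). Its value divided by that of the neighbour Crmp1 was between 0.435 and 0.451 in 8 libraries and 0.630 in hippocampus replicate 2. The last exon of Crmp1 (chromosome 5, 37291117 to 37292133) lies within the span of Evc (37289098 to 37336894) on the opposite strand, with no exon shared. Whether reads were counted over whole gene spans was not tested, and levels per exon length carry that limit.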
